A study of Mus musculus with 50 samples.

Results

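Transcripts of 10 synaptotagmin genes were followed in mouse frontal cortex at 5 ages and in 2 genotypes, with most room given to Syt2, whose protein the study lists as altered in its synaptosomes. By its account that protein was strongly decreased in mutant synaptosomes at embryonic day 18 (E18), whereas the levels given here are of RNA. The genes, Syt1, Syt2, Syt3, Syt4, Syt5, Syt6, Syt7, Syt9, Syt11 and Syt17, were picked by name and found through the symbols of the GENCODE vM21 annotation. All 10 were in the count tables and all 10 passed the filter on low counts, which makes them 10 of the 16330 protein-coding genes tested. Each had counts in every library, from 85 counts for Syt2 in 1 embryonic library to 65412 for Syt1.

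The study sequenced poly-A RNA from bulk frontal cortex of Setd1a+/- mice, written Het here, and of wild-type (WT) mice. Embryos were taken at E14 and E18 (embryonic days), and mice at P7, P35 and P70 (postnatal days); the study's methods place both embryonic ages slightly later than the labels do. Each of the 10 age and genotype groups holds 5 libraries of 1 mouse each, 50 in all. Total counts per library ran from 35507165 to 43907318 with a median of 38626998, and values are given as counts per 1000000 (CPM) after TMM scaling of library size. The labels give the strain of every mouse as C57BL/6NTac, whereas the methods describe a mixed C57BL/6NTac and C57BL/6J background. Het mice carry 1 Setd1a tm1d loss-of-function allele in every cell, all animals are stated to be male, and the labels name no treatment.

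Synaptotagmins are membrane proteins of secretory vesicles, and several of them bind calcium and phospholipid through tandem domains and couple a rise in calcium to vesicle fusion. Syt1, Syt2 and Syt9 are the fast calcium sensors of neurotransmitter release, with Syt1 the usual form in forebrain neurons and Syt2 prominent in brainstem, spinal cord and the terminals of fast-spiking interneurons. Setd1a is a histone H3 lysine methyltransferase of active promoters. RNA from bulk tissue cannot tell fewer cells of a kind from less RNA per cell, which holds for every level given here.

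Of the 50 libraries, 3 stood apart before any synaptotagmin was considered. P7 WT replicate 2 deviated from its group mean with an SD over genes of 0.550 on the log2 scale, against 0.217 to 0.272 in the other P7 libraries and 0.205 to 0.483 in all others. E14 WT replicate 5 had 60159 counts of Xist, the transcript of the inactive X chromosome, and 0 counts of 4 Y-linked genes. E18 WT replicate 2 had 55644 Xist counts and 11 Y-linked counts, while the other 48 libraries had at most 27 of Xist and at least 4711 of the Y-linked genes. Both of these go against the stated sex, and synaptotagmin calls that rest on any of the 3 libraries are given with and without it.

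Setd1a itself (ENSMUSG00000042308, chr7:127776670-127800122, plus strand, GRCm38) was measured over the whole gene, undeleted exons included, so its level checks nothing about the deletion. Of its 6795 exon bases, 52.3% are shared with the overlapping genes 9430064I24Rik and Gm49388, and the counting did not use strand. At E14 its CPM was 129.0, 129.8, 136.5, 119.2 and 119.0 in the WT libraries and 150.2, 136.4, 127.9, 139.7 and 130.1 in the Het libraries. At E18 the CPM was 93.4, 95.6, 94.6, 85.4 and 100 in WT and 104.0, 117.2, 97.0, 103.9 and 113.4 in Het. The Het mean was the higher one at both embryonic ages, and the ranges overlapped. At P7 the WT libraries gave 72.5, 76.2, 70.2, 70.7 and 71.3 CPM and the Het libraries 82.0, 78.3, 76.4, 83.5 and 83.7, which do not overlap. At P35 the 5 WT values were 91.7, 82.4, 81.7, 84.6 and 85.2 and the 5 Het values 91.9, 88.2, 88.3, 89.4 and 91.6. At P70 they were 84.4, 88.7, 84.8, 81.6 and 92.0 in WT and 82.0, 86.0, 81.5, 76.7 and 97.8 in Het, overlapping as at P35, with the Het mean the lower one (84.8 beside 86.3). With age as a covariate Setd1a counts were higher in Het by a log2 difference of 0.10 (SE 0.025, edgeR adjusted p 0.00675, with 4.43% of all genes called). No single age passed the threshold of an adjusted p under 0.05, with the largest difference at E18 (log2 0.19, edgeR adjusted p 0.115).

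Summed per length, as CPM per kilobase of exon (RPKM), the 10 synaptotagmins stood far higher in the adult than in the embryo. In WT the sum went from 168 ± 29.1 RPKM at E14 to 278 ± 8.6 in E18 cortex, 388 ± 36.2 in P7 cortex, 581 ± 16.7 by P35 and 574 ± 9.26 by P70 (mean ± SD, n = 5), with 404.5 ± 3.82 at P7 (n = 4) when WT replicate 2 is left out. In Het the sums were 154.5 ± 14.4, 289 ± 5.07, 395 ± 12.7, 584 ± 19.3 and 568 ± 21.6 RPKM in the same order, and no test was run on the sums. Their makeup differed between ages too. Syt1 supplied 8.12% of the summed WT RPKM at E14 and 31.5% at P70, while Syt11 went from 40.2% to 28.6% and Syt4 from 17.7% at E14 through 28.4% at E18 to 8.45% at P70. Syt2 was the smallest or next to smallest contributor throughout, with 0.240% at E14 and 1.26% at P70.

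**Figure D1:**
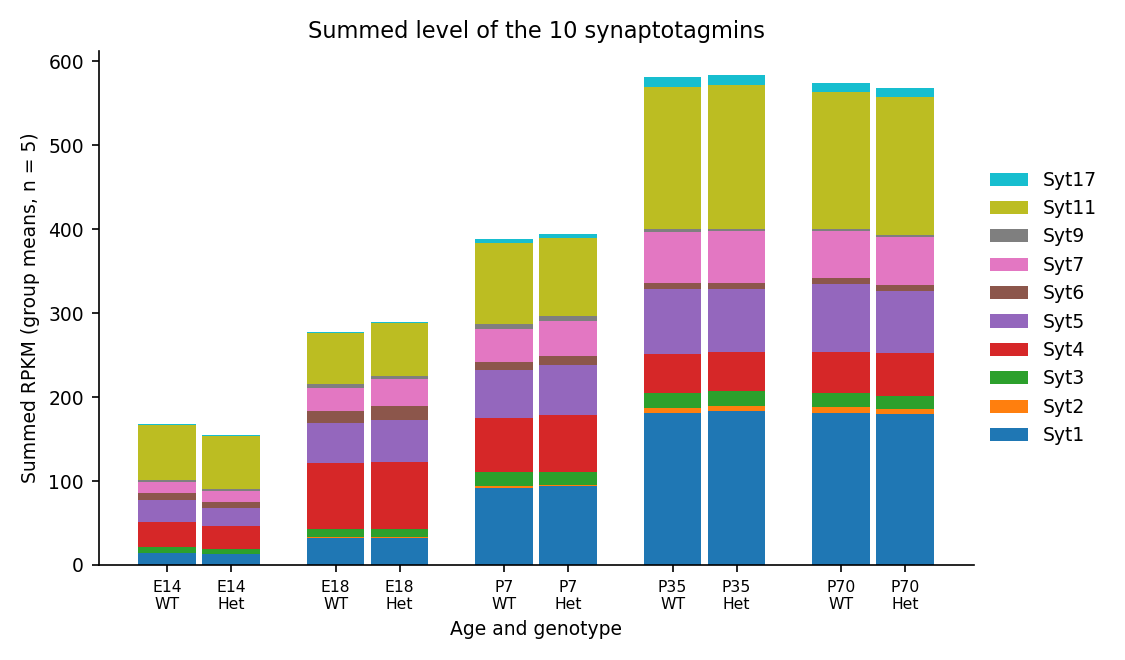
Summed level of the 10 synaptotagmins by age and genotype, in RPKM, as stacked group means of 5 libraries each. The WT sum was 168 RPKM at E14 and 574 at P70, with Syt11 and Syt1 the widest bands of the adult columns.

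Between consecutive ages most synaptotagmins changed, as did most of the genome. From E14 to E18, averaged over both genotypes, 9 of the 10 passed the edgeR test, 8 higher and 1 lower, where 73.4% of all tested genes passed (36% higher and 37.4% lower). All 10 passed from E18 to P7, 8 higher and 2 lower, against 76.1% of the genome (37.9% higher, 38.2% lower). From P7 to P35 all 10 passed again, 7 higher and 3 lower, against 76.1% (38.0% higher, 38.1% lower). Their share of higher calls was thus above that of the genome in each of these steps. limma-voom called 9, 9 and 10 of the 10 in these steps (73.1%, 76.4% and 76.1% of all genes), DESeq2 10, 10 and 10 (74.0%, 76.3% and 76.3%), and an unadjusted p under 0.05 was met by 10, 10 and 10 (75.0%, 77.3% and 77.3%). Without P7 WT replicate 2 edgeR called 10, 9 and 10 (74.1%, 76.5% and 76.5%), the difference in the first and the next step being Syt2. From P35 to P70 edgeR called 0 of the 10, where it called 9.74% of all genes (5.0% higher, 4.74% lower). At an unadjusted p under 0.05 that step had 2 of the 10, Syt3 and Syt11, among 23.9% of all genes. With P7 WT replicate 2 left out edgeR again called 0 of the 10 (11.8% of the genome) and 2 were again under 0.05 unadjusted, and limma-voom and DESeq2 also called 0 while calling 10.2% and 11.9% of the genome. The members' median log2 change was 1.00, 0.54, 0.49 and -0.04 over the 4 steps, while the median of all tested genes lay at 0.00 in each.

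**Figure D2:**
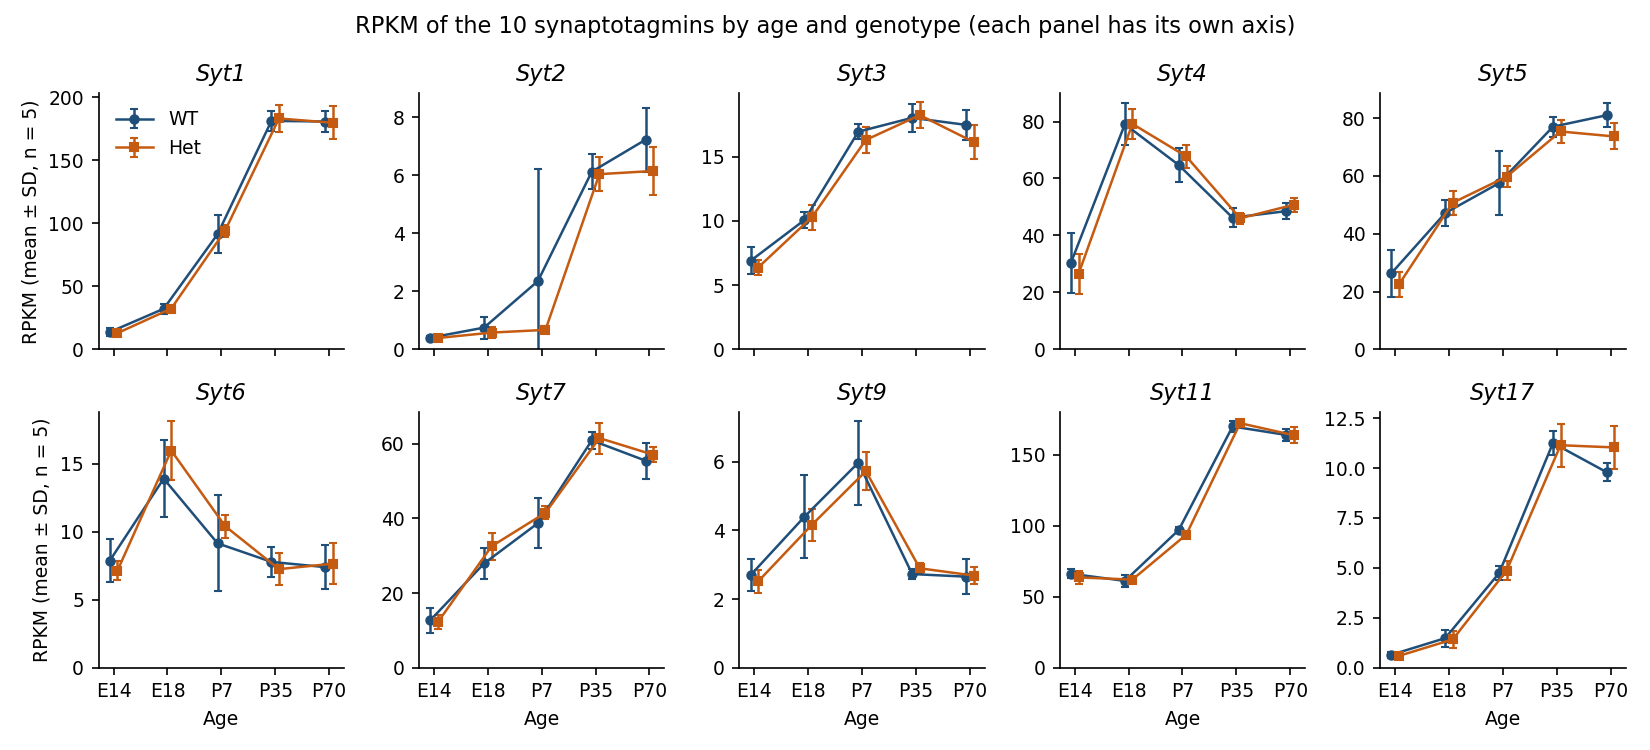
Level of each synaptotagmin against age in RPKM, with points for group means, bars for the SD of 5 libraries, and a linear axis from 0 for each gene. Syt1, Syt2, Syt11 and Syt17 are highest at the adult ages, Syt4 and Syt6 at E18 and Syt9 at P7; the lower bar of Syt2 in WT at P7 is drawn to 0, since the SD there exceeds the mean.

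Syt1, the main fast sensor of forebrain synapses, is on the minus strand at chr10:108497650-109010982 (ENSMUSG00000035864). Its WT level was 13.7 ± 2.82 RPKM (mean ± SD, n = 5) at E14, 32.1 ± 4.12 in E18 cortex, 91.3 ± 14.9 in P7 cortex, and then 181 ± 7.82 and 181 ± 8.22 at P35 and P70. At P7 the WT libraries had 821, 539, 804, 814 and 827 CPM and the Het libraries 792, 748, 806, 836 and 741. Only WT replicate 2 lay outside the range of the others, and below it, and the other 4 WT libraries had 97.9 ± 1.16 RPKM. Syt1 rose by log2 1.28 (SE 0.076) from E14 to E18, 1.53 (SE 0.076) from E18 to P7 and 0.97 (SE 0.075) from P7 to P35, each at an edgeR adjusted p of 7.59e-16 or less. From P35 to P70 its difference was -0.02 (SE 0.074, edgeR adjusted p 0.938).

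Syt2, the fast sensor of hindbrain and fast-spiking synapses, lies on the plus strand at chr1:134646677-134762593 (ENSMUSG00000026452, GRCm38, 7638 exon bases, none shared with another gene). RefSeq places 1 start just upstream of this gene model and 1 inside it, and counts per gene cannot tell transcripts of the 2 starts apart. The 250 bases before each start are shown next to those of Syt1, which shares the role of fast sensor. The window of Syt9, the remaining fast sensor, is not shown. Capitals mark the dinucleotide CG, sought as the letters CG, which read the same on both strands. The bases are from RefSeq (GRCm38.p6), 5' to 3' on the strand of the gene: Syt2 window 1 is chr1:134646362-134646611, Syt2 window 2 is chr1:134709050-134709299 inside the gene, and Syt1 is chr10:109010976-109011225.
Syt2 window 1: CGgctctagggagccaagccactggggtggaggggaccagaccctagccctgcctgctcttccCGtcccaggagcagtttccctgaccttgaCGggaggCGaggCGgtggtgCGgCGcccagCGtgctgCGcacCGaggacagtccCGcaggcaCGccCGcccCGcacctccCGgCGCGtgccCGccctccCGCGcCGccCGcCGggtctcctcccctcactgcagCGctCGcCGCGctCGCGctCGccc
Syt2 window 2: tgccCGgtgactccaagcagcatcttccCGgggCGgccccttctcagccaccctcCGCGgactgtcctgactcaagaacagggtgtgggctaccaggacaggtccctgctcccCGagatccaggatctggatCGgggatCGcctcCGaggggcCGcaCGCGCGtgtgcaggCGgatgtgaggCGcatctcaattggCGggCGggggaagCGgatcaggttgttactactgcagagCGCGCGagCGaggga
Syt1: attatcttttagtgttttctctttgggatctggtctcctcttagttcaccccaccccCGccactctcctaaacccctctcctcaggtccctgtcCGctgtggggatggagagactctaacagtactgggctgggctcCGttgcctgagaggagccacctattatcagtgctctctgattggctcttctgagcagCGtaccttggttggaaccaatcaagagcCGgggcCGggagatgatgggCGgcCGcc
Syt2 window 1 holds 30 CG with 76% G and C, a number that 5.942% of the 32851 windows of this length reach or pass, and window 2 holds 22 with 66.4% G and C (14.82% of windows). The Syt1 window holds 8 CG with 56.4% G and C (43% of windows), near the median of all windows, which is 6 CG and 52.4% G and C; 92.13% of all windows hold a CG. A second Syt1 window inside the gene, not shown, holds 5 CG with 42.8% G and C (55.58% of windows). The table matched 6 of the 10 members with 10 windows. Of the others, Syt9 had 40 CG (1.306% of windows), Syt3 had 8, Syt11 had 9 and the 3 windows of Syt6 had 13, 15 and 14. The Syt11 window lies inside its gene with all 250 bases in counted exons, and the Syt6 window with 14 CG is also inside its gene. Syt4, Syt5, Syt7 and Syt17 were not matched. A count of CG describes the letters of a window and says nothing about methylation or use of the start in these samples.

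Syt2 was scarce through P7 and 9.36-fold higher at P35 than at P7 once P7 WT replicate 2 is left out. At E14 the WT libraries had 3.11, 3.58, 2.97, 3.30 and 2.32 CPM and the Het libraries 2.44, 3.11, 3.66, 3.41 and 2.21. At E18 the values were 8.44, 8.25, 2.93, 6.52 and 2.37 in WT and 6.36, 2.45, 3.90, 4.28 and 5.00 in Het. The genotypes overlap at both ages, and E18 has a wider spread than E14, with 3 of the 5 WT libraries above every Het library. At P7 the WT libraries had 4.91, 70.6, 3.73, 6.34 and 4.28 CPM and the Het libraries 5.63, 5.97, 4.6, 5.67 and 3.72. WT replicate 2, with 2879 Syt2 counts, had 14.2 times the mean of the other 9 P7 libraries, and the other 4 WT values lie among or next to the Het values. At P35 WT had 49.2, 53.0, 46.2, 40.7 and 44.6 CPM and Het 41.6, 45.0, 42.2, 50.7 and 51.1. At P70 WT had 63.7, 56.6, 62.7, 46.1 and 46.9 CPM and Het 46.5, 45.7, 56.7, 39.1 and 46.8. Both adult ages overlap between genotypes, and all 20 of their values lie above every E14, E18 and P7 value other than that of P7 WT replicate 2.

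**Figure D3:**
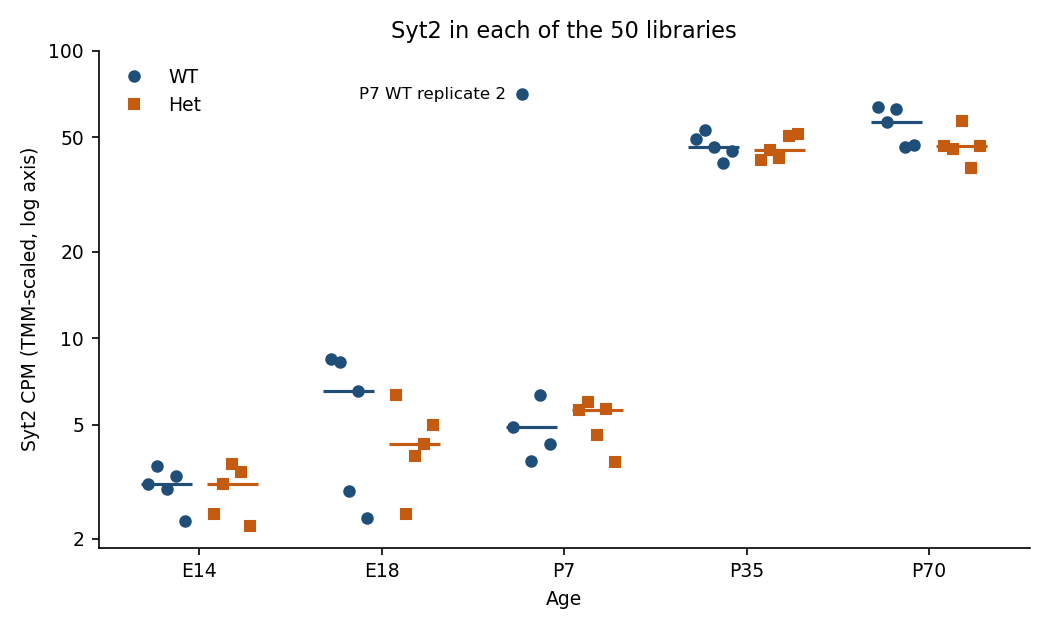
Syt2 in each of the 50 libraries, in CPM on a log axis, by age and genotype, with a bar at each group's median. P7 WT replicate 2 at 70.6 CPM is the highest of all 50, above every adult library and the other 9 P7 libraries, which lie between 3.72 and 6.34.

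Per length, Syt2 in WT stood at 0.400 ± 0.062 RPKM in E14 cortex, 0.747 ± 0.379 by E18, 2.35 ± 3.85 by P7, 6.12 ± 0.609 by P35 and 7.23 ± 1.10 by P70 (mean ± SD, n = 5). With replicate 2 left out the P7 WT mean was 0.630 ± 0.147 RPKM (n = 4), beside 0.670 ± 0.123 in Het. The means of the E18 and P7 groups then lay between 0.576 and 0.747 RPKM, within each other's spread. From P7 to P35 Syt2 rose by log2 2.27 (SE 0.319, edgeR adjusted p 2.02e-08), a 4.83-fold change, and by 3.23 (SE 0.165, edgeR adjusted p 6.14e-22), or 9.36-fold, without P7 WT replicate 2. Its step from E18 to P7 rested on the same library, with log2 0.94 (SE 0.330, edgeR adjusted p 0.00967) in all libraries and -0.02 (SE 0.164, edgeR adjusted p 0.922) without it. From E14 to E18 the order was the reverse, since the difference of 0.74 missed the threshold with all libraries (SE 0.350, edgeR adjusted p 0.0563) and passed without P7 WT replicate 2 (log2 0.73, SE 0.166, edgeR adjusted p 0.00012), whose spread enters the shared error of the fit. It also passed without any 1 of E18 WT replicates 3 and 5, E18 Het replicate 2 and P7 WT replicates 1, 3, 4 and 5, at edgeR adjusted p of 0.0323 to 0.0485. That step also lost some of its size without the 2 libraries with Xist counts (log2 0.61, edgeR adjusted p 0.147). From P35 to P70 the difference was 0.13 (SE 0.296, edgeR adjusted p 0.854).

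Syt9, the remaining fast sensor, lies at chr7:107370728-107548656 and had a course unlike that of Syt1 and Syt2. In WT its 5 group means were 2.70 ± 0.476, 4.39 ± 1.2, 5.97 ± 1.22, 2.73 ± 0.150 and 2.65 ± 0.506 RPKM from E14 to P70, highest at P7. At P7 the WT libraries had 23.9, 31.8, 19.3, 20.7 and 23.0 CPM and the Het libraries 19.95, 21.1, 23.7, 23.7 and 25.4, and replicate 2 of WT was again outside the rest, above them. Syt9 rose in both early steps and then fell by log2 1.06 from P7 to P35 (SE 0.098, edgeR adjusted p 3.3e-13), so that by P35 it had passed below Syt2.

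Syt7 (chr19:10389090-10453180), a slower sensor of high calcium affinity that serves asynchronous release and facilitation, rose in 3 steps, by log2 1.28, 0.41 and 0.61. Its WT level was 12.7 ± 3.28 RPKM at E14, 60.8 ± 2.18 at P35 and 55.4 ± 4.80 at P70. Syt3 (chr7:44384102-44400187), also a calcium-binding form of high affinity, rose from 6.89 ± 1.05 RPKM at E14 to 16.95 ± 0.595 at P7 and stayed near there, with 18.03 ± 1.11 at P35. Its P7 to P35 step was small (log2 0.13, SE 0.052, edgeR adjusted p 0.0291). The call was lost when P35 WT replicate 1 (adjusted p 0.0528), P35 WT replicate 2 (0.0545), P35 Het replicate 5 (0.0542) or P7 Het replicate 5 (0.0649) was left out of the edgeR fit, with log2 values of 0.11 to 0.12.

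The members that do not bind calcium in the usual way split into early and late forms. Syt4 (chr18:31437808-31447406), a vesicle protein induced by activity, had WT levels of 30.4 ± 10.6, 79.0 ± 7.44, 64.7 ± 6.04, 46.2 ± 3.35 and 48.5 ± 2.79 RPKM from E14 to P70, highest at E18. It rose by log2 1.48 from E14 to E18 and fell by 0.26 and 0.52 in the next 2 steps; 14.5% of its exon bases are shared with Gm26658. Syt11 (chr3:88744700-88775164), linked to endocytosis, was already abundant at E14 with 66.3 ± 3.20 RPKM and reached 170 ± 4.12 at P35. Its E14 to E18 step was a fall by log2 0.07 (SE 0.029, edgeR adjusted p 0.0207), lost without E14 Het replicate 1 (log2 -0.05, adjusted p 0.0865) and without E18 WT replicate 3 (log2 -0.06, adjusted p 0.0688) of the edgeR fit, and Syt11 then rose by 0.63 and 0.84. Syt17 (chr7:118380717-118448222), a peripheral membrane form, rose most of all over the first 3 steps together, by log2 1.22, 1.72 and 1.22, from 0.654 ± 0.149 to 11.3 ± 0.616 RPKM in WT at P35.

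Syt5 and Syt6 complete the 10. Syt5 (chr7:4539765-4547541), a form of dense-core and synaptic vesicles, rose in 3 steps by log2 1.01, 0.26 and 0.38, from 26.3 ± 8.22 RPKM at E14 to 77.0 ± 3.52 at P35 in WT. Syt6 (chr3:103575231-103645569), close kin of Syt3, peaked at E18 with 13.9 ± 2.85 RPKM in WT, after a rise by log2 0.99 and before falls by 0.61 and 0.38; 8.67% of its exon bases are shared with the pseudogene Atg4a-ps. Its P7 WT libraries had 72.1, 19.3, 51.7, 66.3 and 57.4 CPM and its P7 Het libraries 61.4, 58.0, 54.2, 63.2 and 67.0. The value of 19.3 belongs to WT replicate 2, and the other 9 libraries overlap between genotypes.

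In the order of WT levels per length, Syt11 led at E14 with no overlap with Syt4 next to it, and Syt4 led at E18 with no overlap with Syt11. At E14 the neighbours from Syt4 through Syt5, Syt1, Syt7 and Syt6 to Syt3 overlapped 1 by 1, and at E18 Syt1 overlapped Syt7 and Syt6 overlapped Syt3. At P7 Syt11 and Syt1 led together with overlapping ranges, and at P35 and P70 Syt1 and Syt11 were the 2 most abundant, again overlapping. Syt2 was last at E14, E18 and P7, overlapping its neighbour Syt17 in WT at E14 and, through WT replicate 2, at P7. It was ninth of the 10 at P35 and P70, above Syt9 with no overlap and with a range that overlaps that of Syt6. Of the other neighbours in adult WT cortex, Syt7 and Syt4 overlap at P70, while Syt5, Syt3 and Syt17 are apart from both of theirs at P35 and P70.

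Genotype, tested with age as a covariate, changed none of the 10 at the adjusted threshold. edgeR called 0 of the 10, where it called 4.43% of all tested genes (723 of 16330), and limma-voom and DESeq2 also called 0 of the 10 against 4.61% and 5.07%. At an unadjusted p under 0.05 there was 1 of the 10, Syt2, against 14.5% of all genes. For Syt2 the log2 difference of Het from WT was -0.49 (SE 0.220, p 0.0316, edgeR adjusted p 0.274), with lower group means in Het at all 5 ages as long as P7 WT replicate 2 is kept. Without P7 WT replicate 2 it was -0.12 (SE 0.096, edgeR adjusted p 0.665), 0 of the 10 reached an unadjusted p under 0.05, and edgeR called 4.38% of all genes. The other 9 members lay between -0.05 and 0.06, with Syt7 the highest. Their 95% intervals were within -0.16 and 0.21, and larger differences over all ages lie outside those intervals. The median of the 10 was -0.01 and that of all tested genes 0.00, and 7 of the 10 were negative, where 49.1% of all genes were.

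An interaction of age and genotype was tested jointly over its 4 terms. edgeR called 0 of the 10 and 0.0% of all genes, limma-voom 0 of the 10 and 0.0%, and DESeq2 0 of the 10 and 0.129%. Syt2 was the 1 member at an unadjusted p under 0.05 (p 0.0412, edgeR adjusted p 0.708), a mark that 6.72% of all genes met. Its p was 0.614 without P7 WT replicate 2, with 0 of the 10 under 0.05 and 0.00612% of all genes called.

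At single ages the only call among the 10 was Syt2 at P7, where edgeR called 0.735% of all genes. The log2 difference of Het from WT was -1.82 (SE 0.461, p 0.000281, edgeR adjusted p 0.0452). DESeq2 called it too (log2 -1.79, adjusted p 0.0191, with 0.784% of all genes called), and limma-voom did not (log2 -0.75, adjusted p 0.740, with 0.098% called). Leaving out P7 WT replicate 2 gave a difference of 0.09 (SE 0.240, edgeR adjusted p 1), of the other sign, and edgeR called 0.0429% of all genes. At P7 the mean was 17.97 ± 29.4 CPM in WT with all 5 libraries, 4.82 ± 1.12 with the other 4, and 5.12 ± 0.938 in Het. Every one of the 5 Het values lies under 70.6 CPM and within or next to the range of those 4 WT libraries, 3.73 to 6.34. At an unadjusted p under 0.05 Syt2 was again the 1 member, against 8.87% of all genes, and without P7 WT replicate 2 edgeR called 0 of the 10. Leaving out any 1 of the other 49 libraries kept the difference between -2.08 and -1.72 with adjusted p from 0.0081 to 0.141, and 29 of these 49 fits lost the call.

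**Figure D4:**
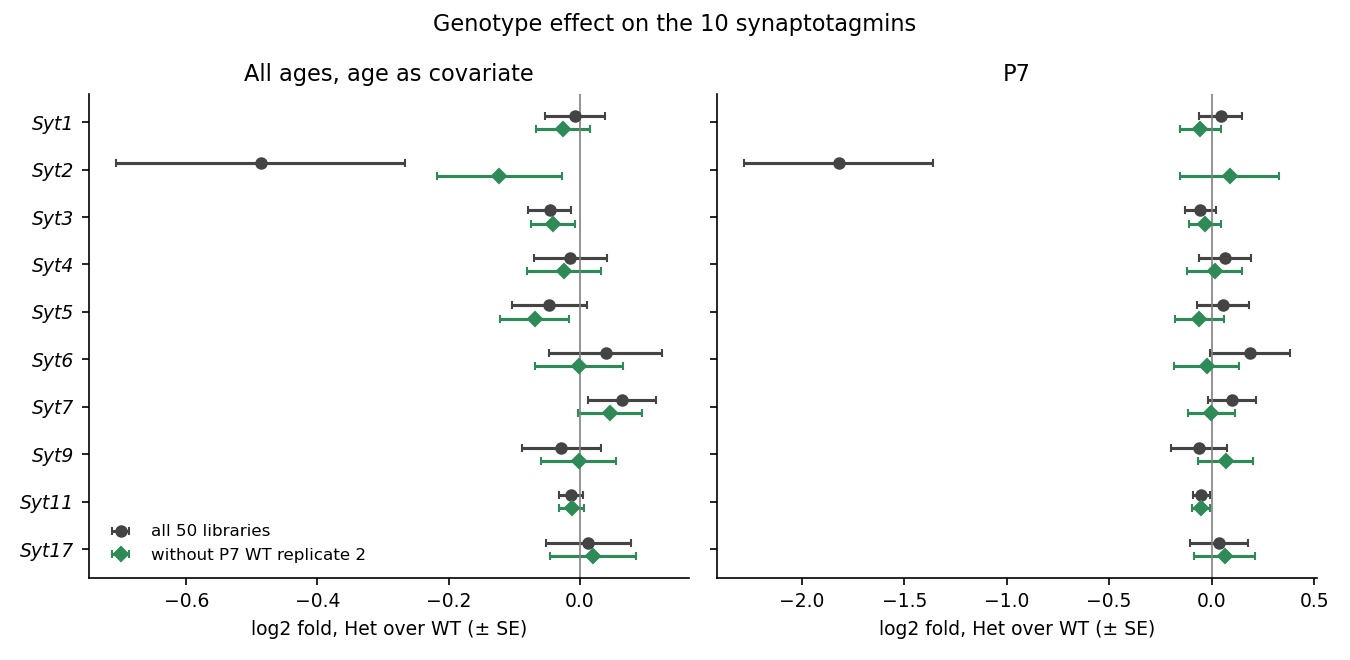
Log2 difference of Het from WT for each synaptotagmin over all ages and at P7, with bars of 1 SE, from all 50 libraries and from 49 without P7 WT replicate 2. Syt2 at P7 moves from -1.82 to 0.09 when that library is left out, and the other members stay near 0.

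At the other ages edgeR called 0 of the 10, where 0.129%, 0.11%, 0.0% and 0.233% of all genes were called at E14, E18, P35 and P70. The same 4 ages had 0 of the 10 by limma-voom (0.159%, 0.0612%, 0.0% and 0.184% of all genes) and 0 by DESeq2 (0.698%, 0.68%, 0.0674% and 0.484%). At an unadjusted p under 0.05 they had 0 of the 10 as well, against 11.6%, 11.4%, 3.37% and 6.55% of all genes. At E14 all 10 differences were negative, from -0.23 for Syt5 to -0.04 for Syt2, with a median of -0.11 beside -0.03 for all tested genes, of which 61.3% were negative. At E18 there were 7 positive and 3 negative, and Syt7 had the smallest p (log2 0.22, p 0.0687, edgeR adjusted p 0.485), which was 0.0455 unadjusted without P7 WT replicate 2. At P35 and at P70 5 were positive and 5 negative. Without P7 WT replicate 2, edgeR called 0.165%, 0.3%, 0.0306% and 0.239% of all genes at these ages and again 0 of the 10. For Syt2 the differences were -0.04, -0.37, -0.02 and -0.23 in that order of ages, with SEs of 0.42 to 0.51 that fell to 0.19 to 0.24 without that library. Without the 2 libraries with Xist counts they were -0.13 at E14 and -0.20 at E18. With 1 library left out the E18 difference of Syt2 ran from -0.57 (without E18 WT replicate 5) to -0.19 (without E18 WT replicate 1). Its edgeR adjusted p was 0.498 or more in each of these fits.

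P7 WT replicate 2 differed from the other 9 P7 libraries in most synaptotagmins. Of the 10, 3 were above the range of the other 9 (Syt2, Syt3 and Syt9), 5 were below it and 2 were within it (Syt11 and Syt17). Below the range were Syt1 with 539 CPM beside 741 to 836, Syt4 with 214 beside 245 to 285, Syt5 with 90.9 beside 131.4 to 160.1, Syt6 with 19.3 beside 51.7 to 72.1 and Syt7 with 203 beside 295 to 327. Above it, Syt3 had 55.8 CPM beside 46.2 to 53.7 and Syt9 31.8 beside 19.3 to 25.4, both far smaller steps than that of Syt2.

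Markers of other brain regions and cell types moved with Syt2 in this library. The summed CPM of 10 hindbrain genes, in the order of WT replicates 1 to 5 and Het replicates 1 to 5, was 0.627, 43.85, 0.111, 0.377, 0.221, 0.217, 0.221, 0.195, 0.274 and 0.445. All 10 genes of that list were above 0 in WT replicate 2, led by the glycine transporter Slc6a5 with 27.3 CPM. Of the defining genes Hoxa2, Hoxb3 and Slc6a5, at least Hoxa2 was at 0 in every other P7 library but Het replicate 5, and both Hoxa2 and Hoxb3 were at 0 in 6 of them. The 6 choroid plexus genes summed to 3.39, 637, 2.54, 3.61, 3.04, 3.55, 4.34, 2.79, 3.31 and 3.51 CPM, with all 6 above 0 in WT replicate 2 and Ttr at 597.8 CPM the most abundant there. Its defining genes Folr1 and Kcne2 were above 0 in all but WT replicate 1, where Folr1 was at 0. The 8 thalamus genes summed to 169.7, 305.1, 108.0, 128.6, 130.4, 114.6, 132.4, 115.7, 156.998 and 157.3 CPM, led in WT replicate 2 by Slc17a6 with 132.7. All 8 were above 0 there, and 5 were above the other 9 (Tcf7l2, Lhx9, Gbx2, Slc17a6 and Lef1), with Lhx9 at 26.3 CPM beside 0.83 to 2.33. Calb2 and Prkcd were within the range of the others, Rgs16 was below it (4.86 CPM beside 5.58 to 8.504), and the defining gene Gbx2 was at 0 in WT replicate 5 and Het replicate 3. The 6 oligodendrocyte genes summed to 243.8, 1484, 205.1, 261.8, 244.0, 201.8, 220.1, 205.7, 226.7 and 202.7 CPM, with all 6 above 0 and Mbp the most abundant at 715 CPM in WT replicate 2.

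Neuronal and astrocyte lists shifted less. The 12 fast-spiking interneuron genes summed to 635.6, 697.1, 506.7, 628.4, 558.9, 582.2, 560.6, 497.8, 610.5 and 590.5 CPM in the same order, with all 12 above 0 in each library and Gad1 the most abundant in all but Het replicate 1, where it was Slc32a1. Of its defining genes, none at 0, Pvalb had 12.3 CPM in WT replicate 2 beside 0.028 to 0.235 in the other 9, Kcns3 had 3.61 beside 4.47 to 6.50 and Cox6a2 had 1.28, within 0.939 to 2.80. Of the 12, Pvalb, Nefh (67.7 CPM beside 17.6 to 24.6), Kcnc1 (126.5 beside 77.3 to 95.9) and Slc32a1 were above the other 9, Kcnc2, Kcns3 and Lhx6 were below, and 5 were within their range. The 8 cortical excitatory genes, led by Slc17a7, summed to 1588, 885.0, 1689, 1562, 1646, 1531, 1470.0, 1687, 1603 and 1517 CPM, so that WT replicate 2 was the lowest, and none of the 8 was at 0. The 5 astrocyte genes, none at 0, summed to 1108, 1379, 1047, 1126, 1108, 1089, 1090.1, 1119, 1197 and 977.5 CPM. Slc1a2, the most abundant, was below the other 9 in WT replicate 2 (564.0 CPM beside 579.5 to 733.9), and the other 4 were above them. Olfactory bulb genes (5 of 6 in the tables, led by Cdhr1, none at 0) summed to 35.9 CPM in WT replicate 2, below the 39.8 to 309 of the others. Striatum, microglia, endothelial and erythroid sums there were 138.6, 93.6, 145.7 and 129.1 CPM, each within the range of the other 9. The part of these tissues in the Syt2 level of WT replicate 2 was not tested.

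**Figure D5:**
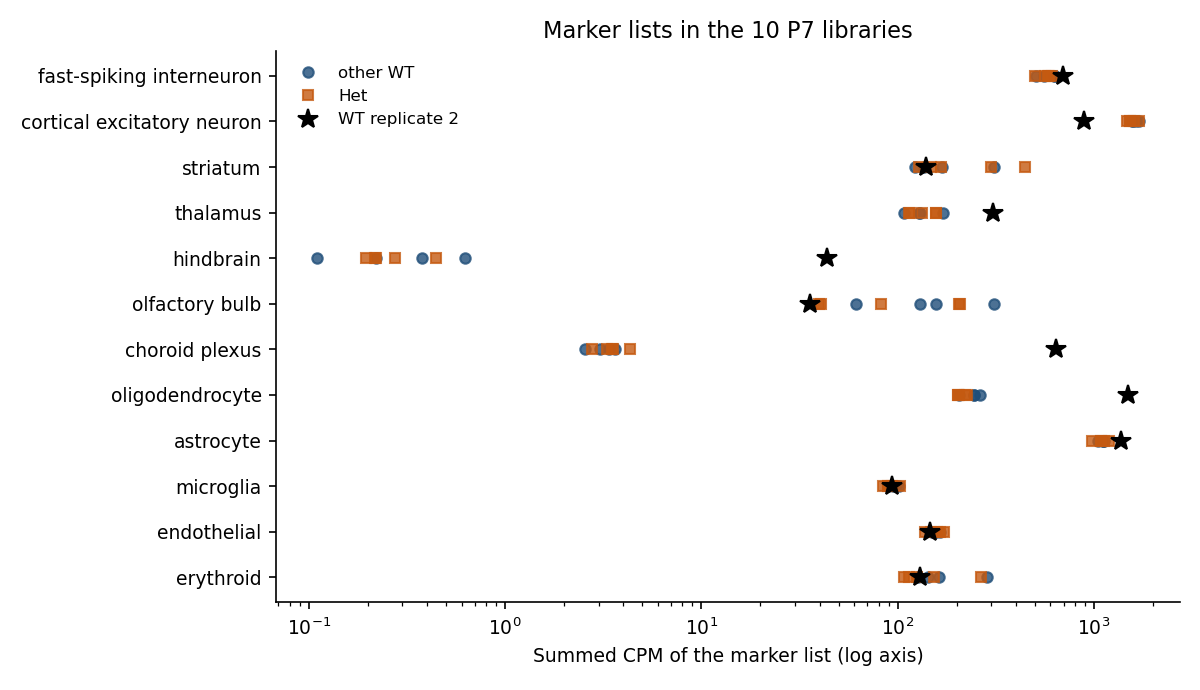
Summed CPM of 12 marker lists in the 10 P7 libraries, on a log axis, with points for libraries by genotype and a star for WT replicate 2. The star lies above the other 9 for hindbrain (43.85 CPM), choroid plexus (637), thalamus (305.1), oligodendrocyte (1484), astrocyte (1379) and fast-spiking interneuron genes (697.1), and below them for cortical excitatory (885.0) and olfactory bulb genes (35.9).

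At E18 the spread of Syt2 among libraries also had markers beside it. Olfactory bulb genes summed to 329.8, 337.6, 79.2, 169.7 and 83.5 CPM in WT replicates 1 to 5 and to 269.7, 63.4, 59.1, 180.5 and 263.3 in Het, all from 5 of the 6 listed genes, led by Cdhr1 or Eomes and with neither defining gene, Doc2g or Tbx21, at 0. Thalamus genes summed to 199.2, 219.0, 138.4, 201.2 and 151.5 CPM in WT and to 189.7, 142.7, 145.6, 161.3 and 192.3 in Het, with all 8 genes above 0 and Slc17a6, Calb2 or, in Het replicate 4, Prkcd the most abundant. The 3 WT libraries with the most Syt2 (replicates 1, 2 and 4) have the highest sums of both lists in WT, and Het replicates 1 and 5, with the most Syt2 in Het, have the highest in Het. The same libraries were highest for oligodendrocyte genes (177.9, 177.2, 106.0, 142.2 and 112.0 CPM in WT), and for none of the other 9 lists. Fast-spiking genes had their highest WT sum in replicate 5 (596.8 CPM), with the least Syt2 in WT, and their lowest Het sum in replicate 5 (397.0 CPM). Gad1 was the most abundant of that list in every E18 library, and its defining gene Pvalb was at 0 in WT replicates 1, 2, 3 and 5. Striatum genes likewise had their highest WT sum in replicate 5 (348.6 CPM) and their lowest Het sum in replicate 5 (174.3 CPM). At P7 the olfactory bulb list did not go with Syt2: WT replicate 1 had its highest sum (308.9 CPM) with 4.91 CPM of Syt2. P7 WT replicate 2, with 70.6 CPM of Syt2, had the lowest olfactory bulb sum (35.9 CPM) and the highest thalamus sum (305.1 CPM). The part of these lists in the Syt2 values was not tested.

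The 8 genes whose course over the 10 groups was most like that of Syt2, by the root mean square difference of centred log2 CPM among 16307 genes, were Mt1 (0.155), Sftpc (0.213), Tgtp2 (0.219), Nptx1 (0.240), Gpd1 (0.246), Wfdc18 (0.261), Thrsp (0.262) and Espn (0.263). Sftpc, Tgtp2 and Wfdc18 were scarce, with mean log2 CPM of -3.82, -4.21 and -3.85 in E14 WT and 0.02, -0.09 and -0.15 in P70 WT, so the prior count of 2 weighs on their match. Mt1 encodes a metallothionein and Nptx1 a secreted neuronal pentraxin, and both changed most from P7 to P35, by log2 2.99 and 2.76. Without P7 WT replicate 2, a comparison chosen after seeing the data, 5 of the 8 were the same (Mt1, Espn, Sftpc, Nptx1 and Thrsp), joined by Gm44579, Adssl1 and Agmat. Among the other synaptotagmins Syt17 came closest (rank 577, 0.719), then Syt1 (rank 683, 0.762), and Syt6 and Syt9 were among the farthest (ranks 10977 and 11075). Vamp1, a vesicle SNARE, ranked 10 with 0.282, Cplx1 ranked 445, Nefh 868 and the potassium channel gene Kcnc1 977, whereas Pvalb ranked 14457. Vamp1, Cplx1, Nefh, Kcnc1 and Pvalb were chosen after their values were seen.

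Around the synaptotagmins, 5 lists of release genes were read with the same tests, beside all 16330 tested genes, of which 5875, 6182 and 6202 were higher and 6113, 6239 and 6226 lower in the first 3 steps. Of 17 tested among 18 other synaptotagmins and relatives, 8, 10 and 5 rose and 4, 4 and 6 fell in the first 3 steps, with Sytl2 and Syt12 changing most from E14 to P70 (log2 5.94 and 4.73). SNARE proteins, the fusion machinery the synaptotagmins act on (12 of 13 tested), had 8, 9 and 8 higher and 2, 2 and 1 lower, with Snap25 at 4.97 and Vamp1 at 3.68. SNARE regulators (11 of 12 tested) had 10, 11 and 9 higher and 1, 0 and 1 lower, led by Cplx3 (8.05) and Nsf (3.66). Most calls in these 2 SNARE lists were thus higher, unlike those of the relatives from P7 to P35. Active zone genes (10 of 10) had 10, 9 and 7 higher and 0, 0 and 3 lower, with Rims1 at 3.33 and Rimbp2 at 3.15, and vesicle genes (15 of 15) had 14, 12 and 11 higher and 0, 0 and 2 lower, with Sv2b at 5.23 and Slc17a7 at 4.90. From P35 to P70 edgeR called 1 SNARE gene and 1 active zone gene, both higher, and 0 in the other 3 lists, where 3, 0 and 1 genes had an unadjusted p under 0.05, limma-voom called 1, 0 and 0 and DESeq2 1, 0 and 0. Of all genes edgeR called 9.74% in this step, limma-voom 10.2% and DESeq2 11.9%, with 23.9% at an unadjusted p under 0.05, and without P7 WT replicate 2 edgeR called 11.8%, with 2 SNARE genes, 2 active zone genes and 1 of the relatives. The median log2 change from E14 to P70 was 1.51 for the 10 synaptotagmins, 0.52 for their relatives, 1.49 for SNARE proteins, 2.64 for regulators, 1.83 for active zone genes and 3.06 for vesicle genes, against -0.00 for all tested genes. By genotype with age as a covariate edgeR, limma-voom and DESeq2 called 0 in each of the 5 lists (4.43%, 4.61% and 5.07% of all genes), and 1 SNARE regulator had an unadjusted p under 0.05 (14.5% of all genes). At single ages edgeR and limma-voom called 0 in these lists and DESeq2 1 SNARE protein, at P7 (0.784% of all genes). An unadjusted p under 0.05 was found for 5 relatives, 1 SNARE protein, 1 regulator and 1 active zone gene at E14, 3 relatives and 3 regulators at E18, 1 SNARE protein and 1 vesicle gene at P7, 0 at P35 and 1 SNARE protein at P70, beside 11.6%, 11.4%, 8.87%, 3.37% and 6.55% of all genes.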

How the data were processed

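The authors trimmed paired-end reads with Trimmomatic, aligned them to GRCm38 with STAR and deposited raw counts per gene from featureCounts 1.4.6-p2, which by the file headers did not use strand and counted a read for every gene it overlaps. The tables hold 55487 genes, 55141 of them in GENCODE vM21. Protein-coding genes (21897) were kept where edgeR's filterByExpr (minimum count 10, by the 10 groups) passed them, leaving 16330. Counts were scaled by TMM and tested with edgeR 4.0.16 quasi-likelihood F tests in R 4.3.3, all 50 libraries in each fit: genotype with age as a covariate, and genotype at each age, the age by genotype interaction and the 4 age steps from a fit of the 10 groups. Benjamini-Hochberg adjustment ran over all tested genes, with calls at an adjusted p under 0.05. RPKM divided CPM by the exon length in the tables. Python 3.11.15 with pandas 2.3.3, numpy 2.4.6 and matplotlib 3.10.9 made the summaries. Alternatives were limma-voom (limma 3.58.1), DESeq2 1.42.0, its size factors, library size only, other filters and gene sets, an RNA integrity covariate, a replicate block, subsets of libraries, a stricter threshold each library left out in turn and, chosen after seeing the data, likeness to Syt2 without P7 WT replicate 2.

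The text names all 10 synaptotagmins, the 8 genes most like Syt2 in course, and from each of 5 functional and 12 marker lists any member edgeR called by genotype with age as a covariate, the 2 with the largest change from E14 to P70 and, for most marker lists, the most abundant gene by mean RPKM. Further list members are named where values of single libraries or ranks of likeness to Syt2 are described. The lists are other synaptotagmins and relatives, SNARE proteins, SNARE regulators, active zone, synaptic vesicle, and markers of fast-spiking interneurons, cortical excitatory neurons, striatum, thalamus, hindbrain, olfactory bulb, choroid plexus, oligodendrocytes, astrocytes, microglia, endothelium and erythroid cells. Members and lists were chosen with earlier results of these data known. Promoter bases are from RefSeq (GRCm38.p6).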

Additional observations from a re-analysis of the deposited data

Results flagged for a closer look

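In 100 groups of 5 libraries (10 genes in 10 groups), the gap of the highest or lowest library to the next, over the range of log2 CPM, passed the critical value of 0.71 for 10, where chance alone gives about 5. In P7 WT replicate 2 it did so for 5 genes. Syt2 was far above its group (70.6 CPM, next 6.34, gap 0.82 of the range). Lower than their groups in this library were Syt1 (539 CPM, next 804, gap 0.936), Syt5 (90.9, next 141.5, gap 0.782), Syt6 (19.3, next 51.7, gap 0.748) and Syt7 (203 CPM, next 296, gap 0.811).

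The other 5 gaps are spread over as many libraries. Syt1 was low in E14 Het replicate 5 (81.9 CPM, next 105.6, gap 0.717), and Syt4 was high in E14 Het replicate 3 (151.5 CPM, next 97.6, gap 0.73). Syt6 was low in E18 WT replicate 4 (52.3 CPM, next 82.2, gap 0.774). For Syt17 the low libraries were E14 WT replicate 5 (2.06 CPM, next 3.44, gap 0.81), which is 1 of the 2 with Xist counts, and P7 Het replicate 5 (21.2 CPM, next 25.7, gap 0.741).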

How the results depend on the processing

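The call of Syt2 at P7, the 1 call by genotype at single ages, was kept by DESeq2 (log2 -1.79), library size only (-1.91), every protein-coding gene with a count (-1.82) and without the 2 libraries with Xist counts (-1.82). The count of calls was 0 under limma-voom (Syt2 -0.75), DESeq2 size factors (-1.80, adjusted p 0.0514), 10 CPM in 5 libraries (-1.83, adjusted p 0.0501), all annotated genes (-1.83, adjusted p 0.0540), the RNA integrity covariate (-1.82, adjusted p 0.0506), libraries of 1 age (-1.82, adjusted p 0.608, with fewer libraries to set the spread) and a threshold of 0.01 (-1.82, main adjusted p 0.0452). With a replicate block the count was also 0 (Syt2 -0.705, edgeR adjusted p 0.590, and 0.0001051 for Syt1 by genotype with age, reversed in sign). The labels do not state that same-numbered libraries are pairs. The methods mention littermates at postnatal ages but tie them to no replicate number. Between the deviations of 25 same-numbered pairs r ran from -0.2067 to 0.4612, and 9 were over 0.1. Of the 25 WT libraries, 7 were nearest their own number. Such correlations cannot decide whether the libraries are related. The block changed no other call and was not fitted to age steps. Leaving out each of 50 libraries gave -2.08 to 0.0876 for Syt2 at P7, 0 to 1 calls at single ages, 0 by genotype, for the interaction and from P35 to P70, and 8 to 10, 9 to 10 and 9 to 10 in the first 3 steps. Of all genes edgeR called 73.4%, 76.1% and 76.1% in these steps with all libraries, and 74.1%, 76.5% and 76.5% without P7 WT replicate 2. Shares of all genes for the other left-out fits are not given here. Signs of small, uncalled differences turned in ranges of -0.0251 to 0.0113 for Syt1, -0.0401 to 0.0318 for Syt4, -0.00187 to 0.0596 for Syt6 and -0.00519 to 0.0487 for Syt17 by genotype with age, -0.13 to 0.0532 for Syt2 at E14 and -0.0665 to 0.0285 at P35, and from P35 to P70 in -0.0306 to 0.00046 for Syt1 and -0.0452 to 0.0579 for Syt6. Syt2 from E18 to P7 ran from -0.0186 to 1.07. Uncalled P7 differences of Het from WT turned without P7 WT replicate 2 for Syt1 (0.04 to -0.06), Syt5 (0.06 to -0.06) and Syt6 (0.19 to -0.02). The same held for Syt7 (0.10 to -0.0016) and Syt9 (-0.06 to 0.07). Uncalled values also turned sign for Syt17 by genotype without the libraries with Xist counts (-0.00845), and from P35 to P70 for Syt5 in Het libraries (-0.0333) and Syt6 under limma-voom (-0.0109), library size only (-0.0107) and in WT libraries (-0.0734). Library size only called 1 from P35 to P70, Syt11, and the share of all genes it called in that step is not given here. Of the 104 values compared under library size only, 5 moved, 1 weakened, 1 strengthened and 1 turned sign. In the fewer libraries of 1 genotype, calls were lost for Syt3 (P7 to P35) and Syt6 (P7 to P35) in WT, and for Syt2 (E18 to P7), Syt3, Syt4, Syt5 and Syt11 in Het. Calls were also lost for Syt2 from E18 to P7 under limma-voom, Syt3 from P7 to P35 under library size only, the RNA integrity covariate and the 0.01 threshold, Syt6 from P7 to P35 under that threshold, and Syt11 from E14 to E18 under 10 CPM, all annotated genes and that threshold, and Syt2 from E14 to E18 was called by DESeq2 and with 10 CPM. From the 5 WT groups alone, 3 of the 8 genes most like Syt2 were the same. The cause of these shifts was not tested unless stated. Depth limits Syt2 most at E14, where its libraries held 85 to 141 counts.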

Other observations

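Marker lists over the same ages give the setting of the synaptotagmin courses, with edgeR calls for the first 3 steps, in which 5875, 6182 and 6202 of all 16330 genes were higher and 6113, 6239 and 6226 lower. Fast-spiking interneuron genes (12 of 12 tested) had 9, 7 and 10 higher and 2, 2 and 1 lower, with Pvalb at log2 10.43 and Cox6a2 at 7.03 from E14 to P70 and Slc32a1 the most abundant by RPKM, the measure used for each list here, and their summed CPM had medians of 518, 516, 586, 1442 and 1468 at the 5 ages. Cortical excitatory genes (8 of 8) had 2, 1 and 2 higher and 3, 5 and 4 lower, with Slc17a7 at 4.90, also the most abundant, and Neurod2 at -2.32. Striatum genes (10 of 10) had 8, 1 and 9 higher and 2, 5 and 0 lower, with Gpr6 at 4.46, Isl1 at -3.94 and Ppp1r1b the most abundant. Neuronal lists thus differed among themselves in direction. Thalamus genes (8 of 8) had 1, 0 and 1 higher and 5, 3 and 4 lower, with Lhx9 at -6.24, Gbx2 at -3.53 and Calb2 the most abundant, and olfactory bulb genes (5 of 6) had 3, 0 and 0 higher and 1, 1 and 3 lower, with Eomes, the most abundant, at -6.28 and Th at 0.92. Without P7 WT replicate 2 edgeR called 7, 7 and 6 thalamus genes in the 3 steps, beside 74.1%, 76.5% and 76.5% of all genes. Of the 10 hindbrain genes, led by Slc6a5, 0 passed the filter and none was tested.

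Oligodendrocyte genes (6 of 6) had 3, 4 and 6 higher and 0, 1 and 0 lower, with Mobp at 11.47 and Mag at 8.62, and astrocyte genes (5 of 5) had 5, 5 and 1 higher and 0, 0 and 2 lower, with Gfap at 7.61, Aqp4 at 6.28 and Slc1a2 the most abundant. Microglia genes (5 of 5) had 1, 5 and 5 higher and 0 lower, with Tmem119 at 3.22, P2ry12 at 3.18 and C1qa the most abundant, and endothelial genes (5 of 5) had 2, 1 and 2 higher and 0, 0 and 1 lower, with Slco1a4 at 4.82, Flt1 at 1.95 and Cldn5 the most abundant. Choroid plexus genes (6 of 6) had 1, 1 and 0 higher and 5, 1 and 1 lower, with Ttr, the most abundant, at -6.09 and Otx2 at -5.46 (6, 3 and 2 called without P7 WT replicate 2), and erythroid genes (5 of 5) had 0, 0 and 5 higher and 5, 2 and 0 lower, with Hbb-bt at -3.30, Hba-a2 at -2.68 and Hbb-bs the most abundant. From P35 to P70 edgeR called 5 erythroid and 2 oligodendrocyte genes lower and 1 thalamus gene higher, where it called 9.74% of all genes, and without P7 WT replicate 2 the oligodendrocyte calls were 5 and the share 11.8%.

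By genotype with age as a covariate edgeR and limma-voom called 0 in each of the 11 tested marker lists (4.43% and 4.61% of all genes), with DESeq2 calling 1 thalamus and 1 choroid plexus gene (5.07%) and an unadjusted p under 0.05 for 1 fast-spiking, 2 thalamus, 1 olfactory bulb and 2 choroid plexus genes (14.5% of all genes). At P7 alone edgeR called 1 fast-spiking, 1 thalamus, 2 choroid plexus and 3 oligodendrocyte genes lower in Het (0.735% of all genes called), DESeq2 called 1, 1, 2 and 2 (0.784%), limma-voom 0 in each (0.098%), and edgeR 0 in each without P7 WT replicate 2 (0.0429%). At E18 edgeR and limma-voom called 0 of the choroid plexus, thalamus and fast-spiking genes (0.11% and 0.0612% of all genes), with 3, 2 and 2 at an unadjusted p under 0.05 (11.4%), and DESeq2 called 3, 1 and 1 (0.68%), while edgeR without P7 WT replicate 2 called 2, 1 and 0 (0.3%). The choroid plexus median there was log2 -2.52, with sums of 235.5 and 198.8 CPM in E18 WT replicates 3 and 4 and at most 15.8 in the other 8 libraries. Endothelial genes had 0 calls by the 3 tools at E14 and E18, with 4 and 3 of the 5 at an unadjusted p under 0.05 (11.6% and 11.4% of all genes) and medians of opposite sign (log2 0.73 and -0.60). Their highest summed CPM among the E14 libraries was 355.5 beside a median of 74.5, with group means of 78.8 in WT and 141.3 in Het. At E18 the highest sum was 256.3 beside a median of 117.3, with means of 173.3 in WT and 112.5 in Het.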
